A study of Sus scrofa with 12 samples.

Results

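Log2 ratios of FE and SE embryos were examined in pools of XY (male) pig embryos, which were measured on 6 of the 12 two-colour arrays of the series and made up 3 of its 6 biological sets. The 6 arrays were those labelled male. Embryos came from primiparous sows, which had been brought into oestrus while they were still lactating. FE sows were inseminated at that lactational oestrus, whereas SE (skip-a-heat) sows were left until the next one. There were 3 FE and 3 SE sows. Embryos were recovered on Day 9 after ovulation and sexed by PCR, and 5 male embryos of 1 sow made 1 pool. Each XY set put an FE pool and an SE pool on a first array and again on a dye-swap array. Because a pool held the embryos of 1 sow, the effect of a sow, of a pool and of a set cannot be told apart. Strain and sow age were not given in the sources used here.

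At this age the pig conceptus is a hatched blastocyst made of an outer trophectoderm, an inner hypoblast and an epiblast that later gastrulates. Soon afterwards the trophectoderm elongates and releases oestrogens, which signal pregnancy to the sow, together with interleukin 1 beta and interferons that act on the uterine lining. Embryos of 1 litter and of different litters can differ in how far they have come along this path, so genes of steroid synthesis, cytokines and keratins are commonly used to follow it.

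Complete values were present for 43769 probes. A gene symbol was known for 18110 of them, for 11909 genes in all, and 25659 had no symbol. The SD over probes was 0.33 and 0.34 for the arrays of XY set 1, 0.35 and 0.38 for set 2, and 0.47 and 0.44 for set 3. A ratio gives no level, so the labelled stage and sex could not be checked against marker levels, and a ratio from a pool does not tell fewer cells of a type from less RNA per cell. The gene EIF1AY, whose human namesake lies on the Y chromosome, differed between the sets on both of its probes, with 1 of them at -0.35, -0.90 and 0.50 in sets 1 to 3. Sets 1 and 2 were hybridised on 1 slide and set 3 on another, so set 3 and its slide cannot be told apart. With 3 sets, precision was limited by the small number of arrays.

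FE carried a single dye throughout according to the labels, even on the arrays described as dye swaps. The relative direction of the 2 arrays of a set was taken from the values. Over probes and sets, the deviations of the first XY arrays and those of the swap arrays as deposited correlated at -0.725, and within sets at -0.551, -0.740 and -0.808. Swap arrays were therefore multiplied by -1 before the 2 arrays were averaged. Ratios are given with the sign that the first arrays carry, and which of FE and SE a positive one favours is not stated. Words such as lowest and highest refer to that scale and would swap if it were turned.

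The pair of arrays of a set resembled each other to very different degrees. With the swap array turned, Pearson's r across probes was 0.149 in set 1, 0.362 in set 2 and 0.669 in set 3, where both arrays measured the same pair of pools and shared their probes. The sign was the same on both arrays for 50.2%, 52.3% and 58.3% of the probes, so most small ratios had no repeatable sign. A difference of first and turned swap arrays that recurred over the 12 arrays (a dye term) passed limma's test for 16848 probes, or 38.5%. Set ratios over 2-fold in size numbered 207 in set 1, with 146 positive and 61 negative. They numbered 525 in set 2, with 235 positive and 290 negative, and 1821 in set 3, with 442 positive and 1379 negative. Both arrays were over 2-fold with 1 sign for 124, 316 and 1343 probes. Set 3 thus held the most probes with large ratios, and most of these were negative.

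**Figure D1:**
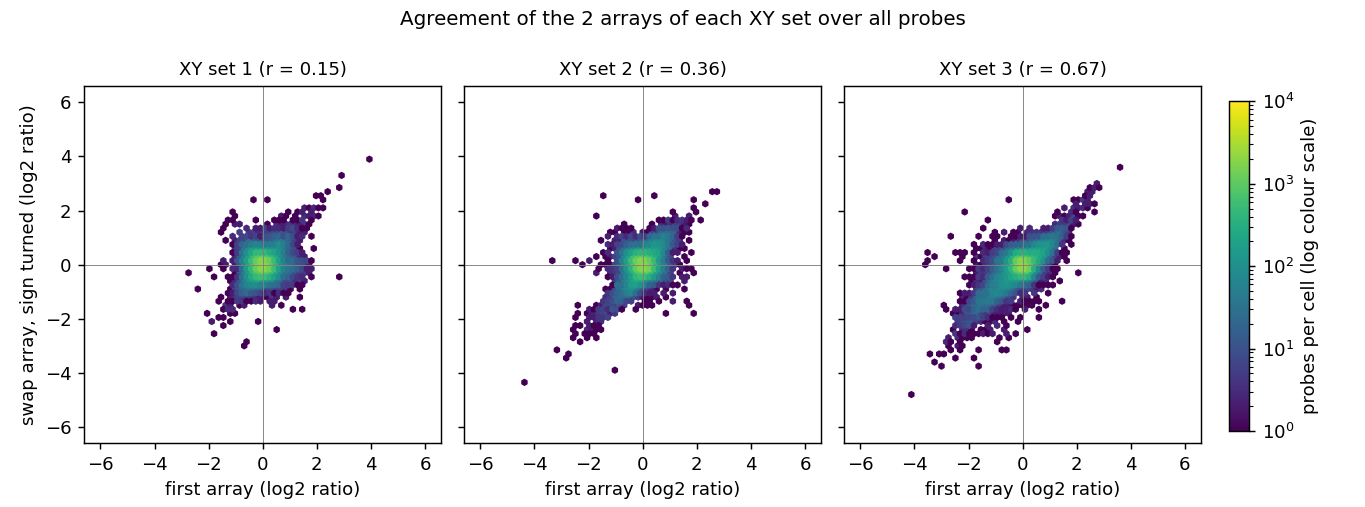
Log2 ratio of every probe on the first array (horizontal axis) and on the swap array with its sign turned (vertical axis) in the 3 XY sets, with the number of probes per cell on a log colour scale. The cloud is nearly round in set 1 (r = 0.149) and drawn out along the diagonal, mostly towards negative ratios, in set 3 (r = 0.669).

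The first comparison asked whether FE and SE embryos of the male sex differed in the same way in all 3 sets. No gene met the test. Of 43769 probes, 0 passed limma at an adjusted p under 0.05 (0% of the probes), and 1418 (3.24%) had an unadjusted p under 0.05, against 2188 at chance. Those 1418 were 745 positive (1.7%) and 673 negative (1.54%) probes. The smallest adjusted p was 0.379. For 92.7% of the probes the 95% interval of the mean ratio lay within 2-fold in both directions. The sign was the same in all 3 sets for 10125 probes (23.1%) and on all 6 arrays for 2017 (4.61%), of which 1038 (2.37%) were positive and 979 (2.24%) negative. Over gene means, 5715 of 11909 genes (48%) had a positive mean, and 2604 (21.9%) had 1 sign in all 3 sets, 1201 (10.1%) positive and 1403 (11.8%) negative. With the opposite relative direction, in which a dye term would count as a ratio, 8653 probes passed.

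MAN2C1, a cytosolic mannosidase that trims free glycans, had the smallest p. Its probe read 1.02 and 0.96 on the first and turned swap arrays of set 1, 0.97 and 1.04 in set 2, and 0.80 and 1.06 in set 3. All 6 arrays lay on 1 side of 0 within a narrow band. The mean ratio was 0.97 ± 0.04 (SD, n = 3 sets), a 1.96-fold difference, with an adjusted p of 0.379 from limma. On the slide of sets 1 and 2 the mean was 1.00, and set 3 stood at 0.93. The gene had 6 other probes, whose mean ratios had a median of 0.05 and reached from -0.09 to 0.47.

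GSTM3, a glutathione S-transferase of the mu class, came next. Its probe read -1.12 and -1.58 in set 1, -1.36 and -1.49 in set 2, and -1.43 and -1.96 in set 3. Every array was beyond 2-fold and negative. The mean was -1.49 ± 0.18 (SD, n = 3 sets), with an adjusted p of 0.609 from limma, and the 1 other probe of the gene had a mean of -0.13. Both MAN2C1 and GSTM3 kept their sign in the pools of XX (female) embryos, at 0.77, 1.06 and 1.00 for MAN2C1 and -1.05, -1.49 and -0.76 for GSTM3. XX and XY pools came from the same sows, so these sets are not fully independent.

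The other 13 genes of smallest p had mean ratios of at most 0.73 in size, and their adjusted p-values from limma rounded to 1. LAT, an adaptor of T cell receptor signalling, read 0.57, 0.46, 0.40, 0.70, 0.45 and 0.55 on the first and turned swap arrays of sets 1 to 3, a mean of 0.52 ± 0.03. AGR2, a disulphide isomerase of the endoplasmic reticulum, read -0.32, -0.43, -0.25, -0.45, -0.32 and -0.51, a mean of -0.38 ± 0.03. Both were steady over arrays and small in size. SUCLG2, a subunit of the GTP-forming succinyl-CoA ligase of the citric acid cycle, had a mean of 0.73 ± 0.26, and its 2 other probes had a median of 0.11. CPSF1, a subunit of the factor that cleaves and polyadenylates messenger RNA, had 0.60 ± 0.04. DEPDC5, a subunit of the GATOR1 complex that restrains mTORC1, had 0.44 ± 0.12. HELQ, a DNA repair helicase, had 0.43 ± 0.14, and MTRR, which reactivates methionine synthase, had 0.36 ± 0.09. The other probes of DEPDC5 had means from -0.003 to 0.18, and those of MTRR from -0.01 to 0.08. For LAT the other probe had a mean of 0.34.

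Negative means were those of LIN7C, a scaffold of cell junctions, at -0.67 ± 0.25, MAPT, the microtubule protein tau, at -0.64 ± 0.33, and GPX1, which reduces peroxides with glutathione, at -0.53 ± 0.23. TMEM38B, which lets potassium pass the membrane of the endoplasmic reticulum, stood at -0.52 ± 0.22. The proteasome subunits PSMC1, an ATPase, and PSMD4, a ubiquitin receptor, had -0.51 ± 0.06 and -0.49 ± 0.20. The other probe of MAPT had a mean of -0.04, and those of PSMD4 had -0.10 and -0.49. Steady set means could hide arrays that differed. PSMD4 read 0.22 on the first and -0.72 on the turned swap array of set 1, and TMEM38B read 0.06 and -0.63 in set 2, so neither gene had 1 sign on all 6 arrays. In XX pools, 7 of the 15 genes had the sign of the XY mean in all 3 sets and 2, MAPT and PSMD4, had the opposite sign in all 3, compared with 14.2% and 10.2% of all probes.

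**Figure D2:**
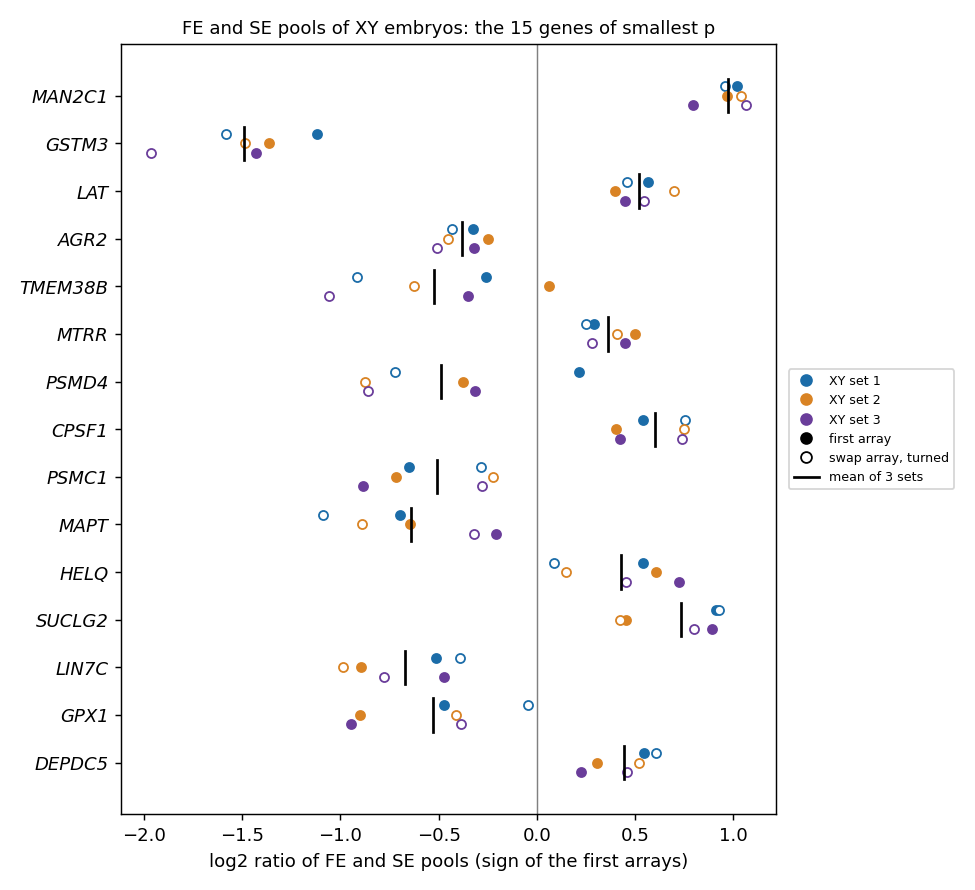
Log2 ratios of FE and SE pools (horizontal axis) on the first arrays (filled) and turned swap arrays (open) of the 3 XY sets for the 15 genes of smallest p, with the mean of the 3 sets as a bar. MAN2C1 and GSTM3 sit farthest from 0, while PSMD4 and TMEM38B have arrays on both sides of it, and none of the 15 passed the adjusted test.

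Large ratios that held their sign were few, and most had no gene symbol. The mean was over 2-fold in size for 104 probes, 59 positive and 45 negative. On all 6 arrays 75 of these had 1 sign, 46 positive and 29 negative. Only 10 of the 75 carried a gene symbol. In the XX sets, 49 of the 75 (65.3%) had the XY sign in all 3 sets, against 14.2% of all probes, and 2 had the opposite sign in all 3. The size of these ratios was mostly not the same in each XY set. Of the 104 probes over 2-fold, 97 (93.3%) also passed the test between sets described below, beside 28.4% of all probes.

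Of the 10 named probes, 9 were negative. NMU, the precursor of neuromedin U, a neuropeptide that acts on smooth muscle and feeding, read -2.02 and -1.83 in set 1, -0.82 and -1.03 in set 2, and -1.82 and -2.13 in set 3. The arrays of set 2 did not overlap those of the other two sets. The mean was -1.61 ± 0.60 (SD, n = 3 sets), a 3.05-fold difference whose 95% interval reached from -3.20 to -0.02. That interval takes no account of the number of probes tested, and the adjusted p of NMU from limma was 0.9998. XX sets read -4.65, -2.61 and -0.82.

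B2M, the light chain of MHC class I molecules, read -1.43 and -2.19 in set 1, -0.44 and -0.82 in set 2, and -1.61 and -2.35 in set 3. It too was closest to 0 in set 2, and its mean was -1.47 ± 0.74. XX sets read -2.34, -0.84 and -0.93. SLA-1, a heavy chain that pairs with B2M, had a mean of only -0.26 ± 0.07. TAP1, a subunit of the transporter that moves peptides into the endoplasmic reticulum, had 0.50 ± 0.48. Thus the means of these members of the class I pathway did not share a sign, and none of them passed the adjusted test.

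CASC4, a gene of no well-defined role here, had a mean of -1.53 ± 0.82, and LOC100519082, with no annotated name, had -1.44 ± 0.76. STAG2, a cohesin subunit, had -1.44 ± 0.78, but its 3 other probes had means of 0.12 to 0.35. ATP6V0A4, a subunit of the proton pump of acidic compartments, had -1.20 ± 0.92 against other probes at 0.06 to 0.12. VPS13C, a lipid transfer protein, had -1.15 ± 0.55 against 0.11, and RIMKLB, an amino acid ligase, had 1.17 ± 0.28 against 0.08. RPL36, a protein of the large ribosomal subunit, had -1.03 ± 0.95 against -0.52. Of the 6 named probes whose gene had another probe, 5 had others with a median under 0.25 in size. The sixth, RPL36, had another probe of the same sign at about 50% of the size.

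**Figure D3:**
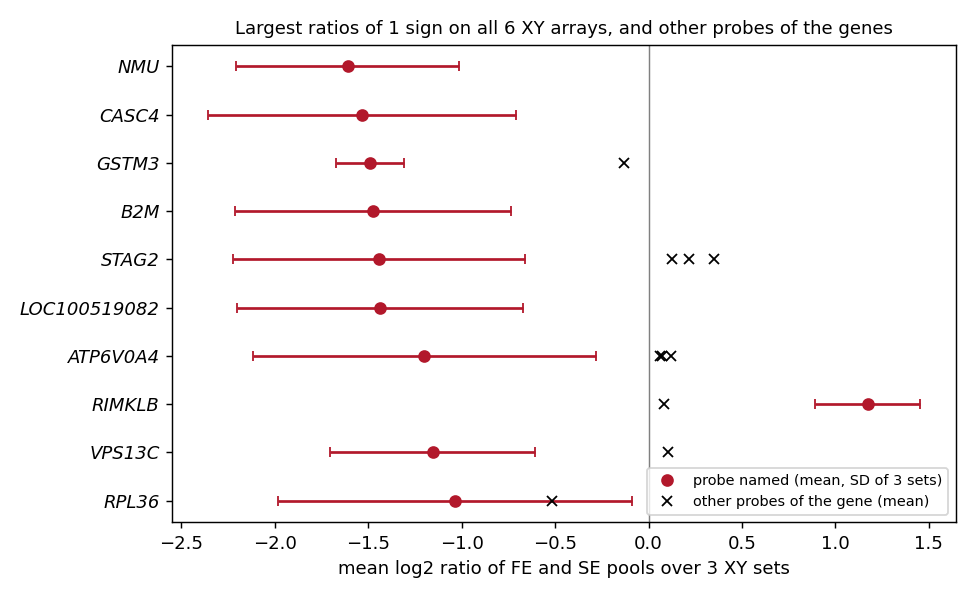
Mean log2 ratio over the 3 XY sets (horizontal axis) of the 10 named probes with the largest ratios of 1 sign on all 6 arrays, with the SD of 3 sets as error bars, and of the other probes of the same genes as crosses. Crosses lie near 0 for GSTM3, STAG2, ATP6V0A4, RIMKLB and VPS13C and at -0.52 for RPL36; NMU, CASC4, B2M and LOC100519082 had no other probe.

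The second comparison asked how far the 3 XY sets differed from each other, measured against the spread between the 2 arrays of a set. It compares pools, and it is no test of FE against SE. Differences were widespread: 12439 probes (28.4%) passed limma's moderated F at an adjusted p under 0.05, among them probes of 4157 genes (34.9%), and 16122 (36.8%) had an unadjusted p under 0.05. Sets 1 and 2, which shared a slide, differed for 5830 probes (13.3%). Sets 1 and 3 differed for 8500 (19.4%) and sets 2 and 3 for 10510 (24%). Ratios of different signs were usual among the 12439, at 88.4%, compared with 76.9% of all probes. Set 3 stood apart from the other two for 51.0% of them, set 2 for 32.0% and set 1 for 16.9%. Without the dye term 6240 probes passed, without set 2 the count was 8134, and without set 3 it was 5179. With the opposite relative direction, 0 probes passed limma's F, and 314 had an unadjusted p under 0.05.

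Across all probes, the set ratios correlated at r = 0.0851 for sets 1 and 2, 0.0926 for sets 1 and 3, and -0.162 for sets 2 and 3. The points were the same probes on arrays of different pools. The closest likeness of any XY set was with an XX set: XY set 2 and XX set 2 correlated at 0.503, whereas XY set 1 correlated at 0.166, 0.228 and 0.286 with XX sets 1 to 3. XY set 3 and XX set 3, which shared a slide, correlated at 0.213.

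Genes with which the conceptus makes steroids and cytokines were 5 of the 15 genes of largest F. HSD11B2, which inactivates glucocorticoid, read 1.71 and 2.06 in set 1, -0.98 and -0.61 in set 2, and -2.83 and -2.82 in set 3. The pairs of arrays lay far apart, with set 1 positive and the other sets negative. Its set means of 1.88, -0.80 and -2.83, each with a standard error of 0.11, gave an adjusted p of 3.0e-08 in limma's F. The mean over sets, -0.58 ± 2.36 (SD, n = 3 sets), was small against that spread.

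HSD17B1, which forms oestradiol from oestrone, followed the same order. It read 1.56 and 1.22 in set 1, -0.99 and -1.15 in set 2, and -2.97 and -3.74 in set 3 (adjusted p = 3.2e-08, limma's F). Its other probe read 0.63, -0.86 and -2.83 in the 3 sets, the same order. IFNG, the interferon that pig trophectoderm secretes in large amounts around elongation, read 0.83 and 0.48, -0.98 and -1.52, and -4.14 and -4.73 in sets 1, 2 and 3 (adjusted p = 3.4e-08). No other named gene had as low a mean in set 3. The 3 sets did not overlap for any of these genes, which were chosen for their large F.

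IL1B, interleukin 1 beta, read 4.0 and 3.89 in set 1, -0.42 and -0.25 in set 2, and -2.36 and -2.96 in set 3. IL1B2, the copy known from pig conceptuses, read 2.43 and 2.73, -0.15 and -0.38, and -2.27 and -2.75. Both had set 1 highest and set 3 lowest, and IL1B spanned 6.61 log2 units. They are close paralogs, and whether each probe measures 1 of them was not tested. The adjusted p-values in limma's F were 1.8e-07 and 2.1e-07.

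Some other steroid genes that passed F were lowest in set 3 as well. CYP17A1, which makes androgens from progestins, had gene means of -0.13, 0.01 and -1.24 in the 3 sets. STAR, which brings cholesterol into mitochondria, had -0.03, -0.02 and -1.12. HSD17B8, another hydroxysteroid dehydrogenase, had 0.11, 0.50 and -1.26, and all 7 of its probes passed. HSD3B1, which forms progestins, had 0.30, -0.24 and 0.02, and HSD17B2, which inactivates oestradiol, had -0.13, -0.06 and -0.10, and neither passed. PTGES, a prostaglandin E synthase, had -0.21, 0.47 and -1.32, whereas the cyclooxygenase PTGS2, with -0.27, 0.21 and -0.12, did not pass. Of the 24 measured genes on the list of conceptus steroid and cytokine signals, 13 had a probe past the F test, as did 22 of their 43 probes (51.2%, compared with 32.3% of all named probes). Gene medians were 0.06, -0.02 and -0.46 in sets 1 to 3. In set 3, 11 of the 24 genes lay below -0.5 and 0 above 0.5, compared with 8.17% and 5.05% of all genes. The list had 0 probes past the test of the mean ratio. Its smallest unadjusted p was that of S100G, a calcium-binding protein, at -0.46 ± 0.30.

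XX pools gave values of the same kind for these genes. In XX sets 1 to 3, HSD11B2 read -0.73, 0.52 and -2.04, HSD17B1 0.21, 0.67 and -1.61, IFNG -1.74, -0.78 and -2.88, and IL1B -1.53, 2.73 and -1.93. All 4 were lowest in XX set 3, which was on the same slide as XY set 3. The order of the other two sets was not that of the XY pools, since IL1B was highest in XX set 2 and in XY set 1.

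**Figure D4:**
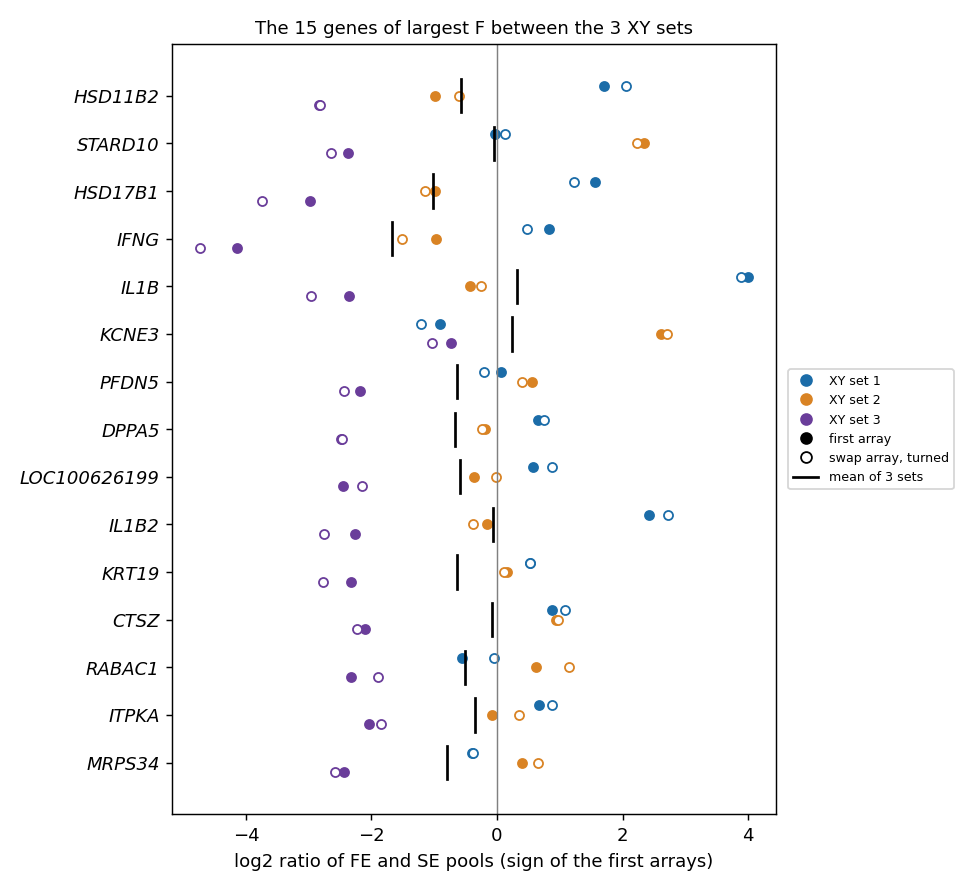
Log2 ratios of FE and SE pools (horizontal axis) on the first arrays (filled) and turned swap arrays (open) of the 3 XY sets for the 15 genes of largest F, with the mean of the sets as a bar. Both arrays of a set lie close together and the sets far apart, and set 3 has the lowest mean for 14 of the 15 genes, all but KCNE3.

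Trophectoderm markers gave a more divided picture. KRT19, a keratin of simple epithelia, read 0.53 and 0.52 in set 1, 0.15 and 0.11 in set 2, and -2.33 and -2.78 in set 3 (adjusted p = 2.2e-07, limma's F). Without set 3 the gene no longer passed (adjusted p = 0.110, limma). The keratins KRT8 and KRT18 had gene means of 0.47, 0.50 and -1.73, and of 0.13, -0.05 and -1.94. Tight junction genes joined them in part, with CLDN7 at 0.17, 1.14 and -1.31 and CLDN4 at -0.03, 0.11 and -0.57. TJP1, at 0.34, -0.17 and 0.37, was highest in set 3 and passed. OCLN had means over its 2 probes of -0.06, -0.17 and -0.15. These lie too close together to rank the sets, though each of its probes passed F. Of the transcription factors that define the lineage, CDX2 had 0.09, 0.66 and -0.16, GATA3 0.26, 1.26 and 0.12, and TEAD4 0.17, 0.40 and -0.02. Each was highest in set 2 and lowest in set 3, but its set 3 ratio was small beside those of the keratins. TFAP2C, at 0.25, -0.50 and -0.29, was instead highest in set 1 and lowest in set 2, and both of its probes passed. GATA2, TFAP2A, ELF5 and EOMES had 0 probes past the test. In all, 15 of 27 genes had a probe past F (beside 34.9% of all genes), as had 25 of 43 probes (58.1%, beside 32.3% of all named probes), and gene medians were 0.08, 0.08 and -0.10.

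Epiblast markers differed in both directions. DPPA5, an RNA-binding protein of pluripotent cells, read 0.65 and 0.75 in set 1, -0.19 and -0.23 in set 2, and -2.49 and -2.47 in set 3, and its second probe had the same order at 0.80, -0.21 and -2.46. ZFP42, another pluripotency factor, went the other way, at -0.10 and -0.24, -0.15 and -0.18, and 1.18 and 1.13. Thus set 3 was lowest for one marker of pluripotent cells and highest for another. The core factors POU5F1 and SOX2 had gene means of -0.02, 0.49 and -0.05, and of 0.12, 0.15 and 0.33, and SOX2 did not pass. LIN28A, LIN28B and OTX2 were lowest in set 2, at -0.66, -0.83 and -0.64. Of 17 genes, 7 had a probe past F, as had 8 of 21 probes (38.1%, near the 32.3% of all named probes).

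On the hypoblast list, some genes for secreted proteins passed the test between sets and others did not. Among those that passed, APOE, a lipid carrier, had gene means of -0.01, 0.63 and -1.53, APOA1 0.12, 0.05 and -1.30, and RBP4, the plasma carrier of retinol, -0.04, 0.02 and -1.32. The apolipoprotein APOC3 also passed but was lowest in set 1, at 0.04, 1.05 and 0.63. LAMB1, a laminin chain of the basement membrane, was at 0.75, -0.36 and 1.14. The secreted proteins AFP, APOA4, TF, COL4A1 and COL4A2 had 0 probes past F. GATA6, HNF4A and FOXA2, which specify the lineage, had 0 probes past F. GATA6 had 0.59, 0.21 and 0.41, an unadjusted p of 0.014 for the mean of 0.40 ± 0.19, but its turned swap array in set 2 was negative, at -0.43. In all, 10 of 26 probes (38.5%) passed F, near the 32.3% of all named probes. Of gastrulation genes, 4 of 18 probes (22.2%) passed, a share below that, with BMP2 at 0.10, 0.80 and 0.36 and BMP4 at -0.22, 0.39 and 0.33. The mesoderm gene T, at -0.26, 0.23 and 0.16, did not pass.

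Markers of maternal tissues were examined in the same way. For the uterus 3 of 20 probes (15%) passed F, and for blood 0 of 21, beside 32.3% of all named probes. Gene medians lay between -0.07 and 0.05 for the uterus and between -0.05 and 0.09 for blood. CST6, a cystatin on the uterus list, was at 0.06, 0.43 and -1.38. The part of maternal cells in the differences between sets was not tested further.

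Ribosomal protein genes differed between the sets in large numbers. Of 83 probes for cytosolic ribosomal proteins, 61 (73.5%, beside 32.3% of all named probes) passed F. Gene medians were -0.05, 0.14 and -0.64 in sets 1 to 3. On the single arrays they were 0.20 and -0.24 in set 1, 0.29 and 0.01 in set 2, and -0.43 and -0.89 in set 3. The turned swap array was the lower one each time, and both arrays of set 3 lay below all others. Of the 48 genes, 38 (79.2%) were lowest in set 3, compared with 39.6% of all genes, and 33 (68.8%) were highest in set 2, compared with 36.5%. RPLP2, a protein of the ribosomal stalk, read -0.42 and -0.39, 0.04 and 0.22, and -1.94 and -2.23 in the 3 sets. RPL13A, a protein of the large subunit, read -0.07 and 0.25, 0.46 and 0.89, and -1.92 and -1.48. Set 3 did not overlap the other sets for either gene, and both were chosen for their large F. On the housekeeping list 13 of 21 probes (61.9%) passed, beside 32.3% of all named probes. By this count, many probes of genes often taken as references were not level between sets. Gene medians of that list were -0.14, 0.04 and -0.33 in sets 1 to 3. Its single-array medians were -0.11 and -0.29, 0.06 and -0.21, and -0.05 and -0.21. These overlapped between sets, and the turned swap array was the lower one each time.

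Mitochondrial genes were similar in extent. For oxidative phosphorylation 51 of 66 probes (77.3%, beside 32.3% of all named probes) passed, with gene medians of -0.10, 0.18 and -0.18. COX5B, a subunit of cytochrome oxidase, read 0.01 and 0.43, -0.22 and 0.34, and -2.08 and -1.87. NDUFB8, a subunit of complex I, had 0.28, 0.16 and -1.50. COX6C, another subunit of cytochrome oxidase, was positive in every set, at 0.31, 0.72 and 0.83, with an unadjusted p of 0.019 for the mean of 0.62 ± 0.27. MRPS34, of the mitochondrial ribosome, had -0.39, 0.53 and -2.51, and CYCS, cytochrome c, had -1.40, -1.13 and 0.30. The direction thus varied within the list. Of 39 genes, 22 were lowest in set 3 (56.4%, beside 39.6% of all genes). Another 12 were highest there (30.8%, near the 32.1% of all genes).

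Protein handling divided as well, and the shares past F that follow stand beside 32.3% of all named probes. For the proteasome 49 of 60 probes (81.7%) passed, with gene medians of -0.14, -0.04 and 0.01. PSMC6, an ATPase of the cap, read -0.36 and -0.70, -0.28 and -0.79, and 2.02 and 1.65, and its other 4 probes, which all passed F, had medians of -0.38, -0.58 and 0.94 in the 3 sets. PSMB6, a catalytic subunit, had -0.32, 0.28 and -1.64. For cytosolic heat shock 24 of 30 probes (80.0%) passed, and the median of 0.31 in set 3 was the highest of the 26 lists. HSPH1 had gene means of -0.45, -0.85 and 0.92, HSPD1 0.02, -0.53 and 1.22, and HSPA8 -0.02, -0.07 and 1.05. These chaperones were highest in set 3, whereas the small heat shock protein HSPB1, at 0.67, -0.06 and -1.36, was lowest there. Lysosomal genes had 21 of 28 probes (75.0%) past F and medians of 0.04, 0.06 and -0.37. CTSZ, a cathepsin, read 0.88 and 1.09, 0.95 and 0.97, and -2.10 and -2.23, and it did not pass without set 3 (adjusted p = 0.956, limma).

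Metabolic and regulatory lists gave further single genes. FDPS, which makes farnesyl diphosphate for sterols, was negative in every set, and 1 of its probes was at -0.60, -0.20 and -1.83, a mean of -0.88 ± 0.85. SLC2A1, the main glucose transporter of early embryos, had 0.32, 1.46 and -0.83, and ENO1, the glycolytic enolase, had -0.48, 0.48 and -1.69. GSTA4, another glutathione transferase, was low in set 1 alone, at -1.51, -0.08 and 0.01. Of the imprinted genes, MEG3 had 0.67, -0.56 and -1.09 on 1 probe, and DIRAS3 -0.28, -0.62 and 0.58 on 1 probe. Gene means over probes of the imprinted list reached at most 0.40 in set 1 and lay between -0.61 and 0.51 in set 3. Other probes of MEG3 and DIRAS3 thus read differently. On that list 7 of 28 probes (25.0%) passed F, below the 32.3% of all named probes. DNMT1, the maintenance DNA methyltransferase, read -0.38 and -1.01, -1.36 and -1.76, and 0.56 and -0.10 on 1 probe, and its 3 other probes, of which 2 passed F, had medians of -0.59, 0.36 and 0.49 in the 3 sets. SETD5, a chromatin protein, read 0.42, 0.54, 0.43, 0.51, 0.52 and 0.68, a mean of 0.52 ± 0.07 with an unadjusted p of 0.0043 that did not pass adjustment. Its second probe had a mean of 0.46.

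On the list of Y-linked and X inactivation genes, 15 of 20 probes (75.0%, beside 32.3% of all named probes) passed F. Gene medians were 0.07, -0.04 and 0.26. EIF2S3, an X-linked initiation factor of translation, had gene means of 0.10, -0.42 and 1.44, and TMSB4X, an X-linked actin-binding peptide, had 0.03, 0.05 and -1.09. The other lists had between 19.4% and 57.9% of their probes past F. The lowest share was that of interferon response and class I presentation, with 7 of 36 probes, and the highest that of glutathione and antioxidant genes, with 22 of 38. The share of retinoid genes, at 35.7%, was near the 32.3% of all named probes, and that of insulin-like growth factors, at 25.0%, was below it. No list had a probe past the test of the mean ratio.

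**Figure D5:**
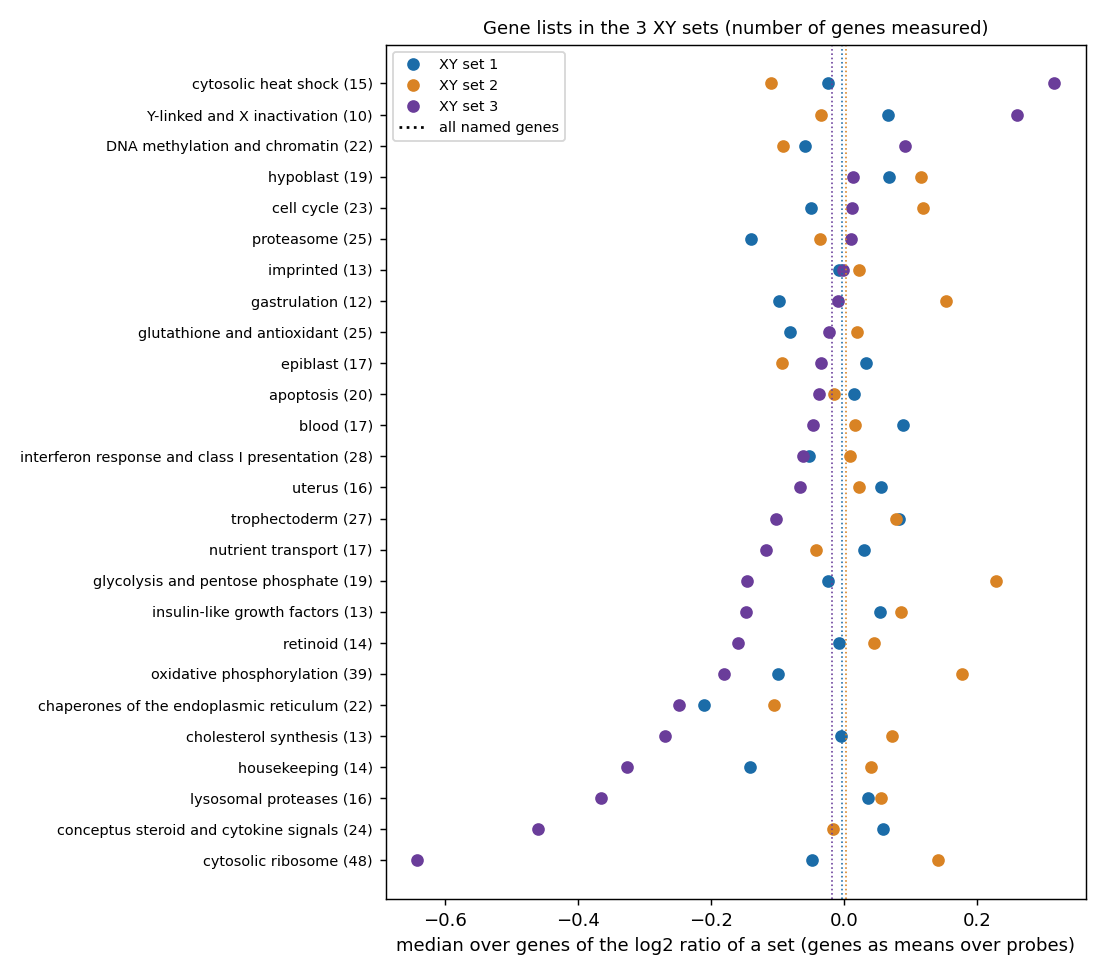
Median over genes of the log2 ratio (horizontal axis) in XY sets 1, 2 and 3 for the 26 gene lists, with the number of measured genes in brackets and the medians of all named genes as dotted lines. Set 3 spreads widest, from -0.64 for the cytosolic ribosome to 0.31 for cytosolic heat shock, while set 1 lies between -0.21 and 0.09 and set 2 between -0.11 and 0.23.

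The remaining genes of largest F came from varied functions. STARD10, a phospholipid carrier, read -0.03 and 0.13 in set 1, 2.35 and 2.24 in set 2, and -2.37 and -2.64 in set 3, and its other probe read -0.10, 1.49 and -1.32. KCNE3, a subunit of potassium channels, had set 2 apart and no difference past the test between sets 1 and 3, at -0.91 and -1.21, 2.61 and 2.71, and -0.74 and -1.04. Without set 2 its difference no longer passed (adjusted p = 0.593, limma). PFDN5, a subunit of the prefoldin chaperone, had -0.07, 0.48 and -2.30, RABAC1, a Rab acceptor of the Golgi, -0.30, 0.89 and -2.12, and ITPKA, an inositol trisphosphate kinase, 0.77, 0.13 and -1.94. LOC100626199, with no annotated name, had 0.72, -0.19 and -2.30.

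Differences between sets were mostly shared by the probes of a gene, unlike the large mean ratios above. Sets were over 4-fold apart for 488 probes past F (1.11%), which were lowest in set 3 for 383 (78.5%) and highest in set 2 for 297 (60.9%). Of these, 246 were named, and 172 belonged to a gene with another probe. For 128 of the 172 (74.4%) the median of the other probes had the same sign and at least 50% of the size in the same pair of sets, and for 21 it was under 0.5. All 3 other probes of RABAC1, both others of CTSZ and the 1 other of PFDN5 passed F, whereas the other probe of KCNE3 did not.

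The third comparison asked whether the ratio differed between XY and XX embryos. Of 43769 probes, 0 passed limma for the XY minus the XX ratio (0%), and 819 (1.87%) had an unadjusted p under 0.05. The smallest adjusted p rounded to 1. The 8 genes of smallest p were ATP5G3, SLC25A3, RPL30, NDRG3, TCOF1, ZMYND12, PABPN1 and PA2G4. PA2G4, a growth-regulating RNA-binding protein, had XY set ratios of -0.27, -0.58 and -0.49 and XX set ratios of 0.37, 0.37 and 0.96, a difference of -1.01. TCOF1, a nucleolar protein of ribosomal RNA synthesis, was at 0.08, 0.48 and 0.23 in XY and at 0.91, 1.04 and 1.25 in XX sets. XY and XX values did not overlap for either gene, but both were chosen for their small p in this contrast, so this adds no support. ATP5G3, a subunit of ATP synthase, read 0.53 and -1.07, 0.53 and -0.76, and 0.63 and -0.85 on the first and turned swap arrays of the XY sets. Its 2 arrays of a set had opposite signs throughout, as had those of SLC25A3, the mitochondrial phosphate carrier.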

How the data were processed

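The deposited values were log2 ratios that the authors had computed for each probe of each two-colour array. They were read as log2 from their range of -4.99 to 5.97, since the sources used here do not give the log base, the numerator channel or the normalization. Per the labels' protocols, RNA was amplified in 1 round and labelled with Cy3 and Cy5. Of 43794 probes, 25 with a missing value were left out. Gene symbols are those of GEO's platform annotation, 365 of them updated through RefSeq's pig genes.

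Swap arrays were sign-turned and averaged with the first array of their set. These set means entered a linear model in limma 3.58.1 under R 4.3.3 (lmFit and eBayes over 6 sets, with a mean for each sex), with Benjamini-Hochberg adjustment over all probes at 0.05. For differences between XY sets, the 12 single arrays were fitted with 1 mean per set and the array role (the dye term), and limma's F was taken among XY sets. The fits were tested on simulated data. In the check of pairing, deviations of same-numbered XY and XX sets correlated at 0.0467, 0.406 and 0.262. For XY sets 2 and 3, but not for set 1, the same-numbered XX set had the highest correlation. The main fits did not use the numbers to pair sets.

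The members and the 26 gene lists (515 of 748 genes measured) were chosen with earlier results of these data known. Named were the 15 genes of smallest p, the 10 of largest mean with 1 sign on 6 arrays, the 15 of largest F, the 8 of smallest p for XY minus XX, Y-linked genes, and per list the 2 of smallest p and the 2 of largest F. A gene is represented by its probe of smallest p. Further list members, chosen after their values were seen, are given as means over probes. Pools are of individual sows per the labels; p-values and intervals for the ratio rest on a spread pooled over the 3 XY and 3 XX sets, while SDs are those of the XY sets. Alternatives covered single arrays, the opposite direction, scaling, probe choice, blocks and left-out sets.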

Additional observations from a re-analysis of the deposited data

How the results depend on the processing

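The count of probes past the test of the XY ratio was 0 without each set in turn, with the 3 XY sets alone, first arrays alone, scaled arrays, named probes, gene means, robust fits, array weights and slide blocks. It was 1 on swap arrays alone, 8653 with the opposite relative direction, and 275 at an unadjusted p with at least 1.5-fold. Set number as a random replicate block (correlation 0.124) left 0 probes, and the fixed replicate block left 0 for XY minus XX. The other alternatives also gave 0 for XY minus XX. The count between sets was 6240 without the role term, 0 with the opposite direction, 6211 over named probes alone (fewer probes tested), 3753 for gene means (fewer features tested), and 5179 to 10713 with a set left out. Of 360 alternative values of gene ratios, 340 kept sign and call, 4 kept their sign and gained a call (PSMC1, HELQ, GPX1 and RPL36) and 16 turned sign. All 16 did so with the opposite direction, which replaces the ratio by the dye term. Among them, TMEM38B, PSMD4, B2M and STAG2 also had an adjusted p under 0.05 there (limma). The 16 were MAN2C1 (-0.046), GSTM3 (0.19), LAT (-0.048), AGR2 (0.084), TMEM38B (0.34), PSMD4 (0.33), CPSF1 (-0.15), MAPT (0.12), LIN7C (0.046), DEPDC5 (-0.085), NMU (0.055), B2M (0.31), STAG2 (0.19), LOC100519082 (0.18), RIMKLB (-0.035) and VPS13C (0.10). Of 150 differences between sets, 18 lost their call, 15 of them with that direction. Of 182 list medians, tried after the data were seen, 21 moved by over 1 SD and 48 changed sign; that of the cytosolic ribosome was -0.21, 0.05 on first arrays alone and 0.04 without set 3. The 3 sets limit what could be called, and signal over background was not analysed here.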

Other observations

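Some probes behaved oppositely on the 2 array roles. With the turned swap arrays alone, 1 probe passed limma for the XY ratio, that of SLAMF6, a receptor of lymphocytes. It read 1.87, 1.76 and 1.71 on the turned swap arrays of XY sets 1 to 3 (mean 1.78, adjusted p = 0.0094), while its mean on the first arrays was -1.38. Averaged over both arrays of each set, its ratio was 0.20.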
